A study of Mus musculus with 22 samples.

Results

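Nanog, Pou5f1, Sox2, Esrrb, Klf2, Klf4, Klf5, Tfcp2l1, Zfp42 and Sall4 encode transcription factors of the inner cell mass (ICM) and of pluripotent cells. They were taken from the deposited expression table by their gene symbols, in a list drawn up with earlier results of these data known, and are 10 of its 55335 genes. Each symbol matched 1 gene, and all 10 identifiers were found unchanged in a reference annotation of the same build, GRCm38 (mm10).

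RNA-seq had been performed on mouse embryos after knockdown of the histone variant H2A.Z (H2A.Z KD) and on control embryos at 3 stages, in 22 libraries of 15 whole embryos each. Expression was given as FPKM, a level per transcript length and per library total, so levels of different genes are compared here per length. The labels give the strain as B6D2F1, which in the methods is that of both parents, and the methods describe the females used for embryo collection as 8 weeks old. All 3 stages were timed from the injection of hCG, which triggers ovulation. The 2-cell embryos were collected at 43 to 44 h, with 4 control and 3 KD libraries. Morulae were collected at 78 h, with 4 control and 3 KD libraries, and blastocysts at 94 h, with 4 libraries of each kind. The paper reports fewer embryos forming blastocysts after KD, while development up to the morula was unaffected. Which KD embryos went into the blastocyst libraries is not stated. A difference between the embryos sampled and an effect of the KD on their RNA cannot be told apart at that stage. For the KD, zygotes received about 10 pL of a mixture of 3 siRNA pairs at 20 µM. The treatment of the control embryos of these libraries is not stated, and the control embryos of the quantitative PCR were noninjected, so an effect of injection and an effect of the siRNAs cannot be told apart. Whole blastocysts hold the ICM together with the trophectoderm (TE), and a library averages 15 embryos. It is not stated whether the pools of a group came from separate collections, so the p-values measure the spread between libraries. FPKM carry no read counts, so the depth is unknown and no counting interval can be given. Each library had between 10143 and 12090 genes at an FPKM of at least 1.

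As background, POU5F1 (OCT4) and SOX2 bind DNA together at many enhancers of pluripotent cells, and NANOG, ESRRB, the Krüppel-like factors, TFCP2L1 and SALL4 act with them in a network in which many members regulate each other. In the embryo, Pou5f1 is present in all cells of the morula before it is restricted to the ICM, Nanog marks the cells that form the epiblast, and Klf5 is also needed for the TE. Zfp42, also called Rex1, is a widely used marker of naive pluripotency.

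The gene targeted by the KD, H2afz, was examined in every library before the members. Replicates 1, 2, 4 and 5 of the 2-cell controls had 1244, 1236, 905 and 1178 FPKM, and replicates 1, 2 and 4 of the KD had 415, 139 and 112. In morulae, control replicates 1, 2, 7 and 8 had 1158, 1336, 1511 and 1421 FPKM and KD replicates 1, 2 and 6 had 30.3, 25.7 and 29. In blastocysts, replicates 1, 4, 5 and 6 had 2656, 2431, 1945 and 2055 FPKM in controls and 64.2, 67.2, 53.2 and 57.6 after KD. Every KD library was below every control library of its stage, and no label was contradicted. KD replicate 1 of the 2-cell embryos kept the highest level of any KD library. The log2 fold change of H2afz was -5.41 in morulae and -5.19 in blastocysts, with limma adjusted p-values of 9.71e-08 and 3.63e-08. At the 2-cell stage it was -2.53 with an adjusted p of 0.543, and -3.12 with an adjusted p of 0.000907 when KD replicate 1 was left out. H2afz shares 61.7% of the stretches of 75 bases of its longest transcript with transcripts of 6 other genes, among them Tmcc1 and processed pseudogenes, so its level is uncertain.

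H2afv, which encodes the second H2A.Z protein, had 97.3, 113, 100.0 and 92.5 FPKM in control morulae and 12.9, 11 and 9.9 in KD morulae. In blastocysts the values were 49.9, 62, 54.5 and 63.5 and 19.9, 16.9, 10.6 and 13.9, and KD libraries lay below all controls at both stages. Its log2 fold change was -2.93 in morulae and -1.86 in blastocysts, with limma adjusted p-values of 2.93e-06 and 7.95e-05. In 2-cell embryos H2afv had 111, 118, 96.8 and 113 FPKM in controls and 97.6, 85.4 and 83.7 after KD, where the groups overlapped and the adjusted p was 0.84.

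Some libraries were the highest or the lowest of their group for several members or for a member named below. Blastocyst KD replicate 5 had the highest level of Nanog, Pou5f1 and Klf4 in its group and of the primitive endoderm regulator Gata6, and control replicate 5 had the highest Nanog, Pou5f1 and Sall4 among the control blastocysts. Morula control replicate 1 had the highest Pou5f1 of all 22 libraries and the lowest Nanog of the control morulae. Morula control replicate 7 had the lowest Tfcp2l1 of its stage. Replicate numbers 1 and 2 occur in 2-cell embryos and morulae together with higher numbers, and number 1 in blastocysts together with higher numbers. The labels do not say what the numbers stand for, so differences within each range of numbers are given below beside the members that passed the test.

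In control embryos the members were expressed at very different levels. At the 2-cell stage Sall4 had the highest mean of the 10, 32.3 ± 2.41 FPKM (SD, n = 4), followed by Klf4, Klf5, Zfp42, Pou5f1, Tfcp2l1 and Klf2, and the means of Sox2, Nanog and Esrrb were 0.381, 0.163 and 0.156 FPKM. In control morulae the order was Nanog, Zfp42, Klf5, Sall4, Tfcp2l1, Pou5f1, Klf4, Klf2, Esrrb and Sox2, from a mean of 106 FPKM down to 0.125. Zfp42 and Nanog were the highest members in control blastocysts, and Sox2 and Esrrb the lowest. Among genes with a mean FPKM of at least 1 in control morulae, 91% were below Nanog and 78% were below Pou5f1. Levels summed over the 10 members were 57.4, 62.9, 67.1 and 65.7 FPKM in the 2-cell controls, 369.8, 409, 416 and 445 in the control morulae and 383, 403, 531 and 408 in the control blastocysts. The lowest control morula was thus far above the highest 2-cell control.

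**Figure D1:**
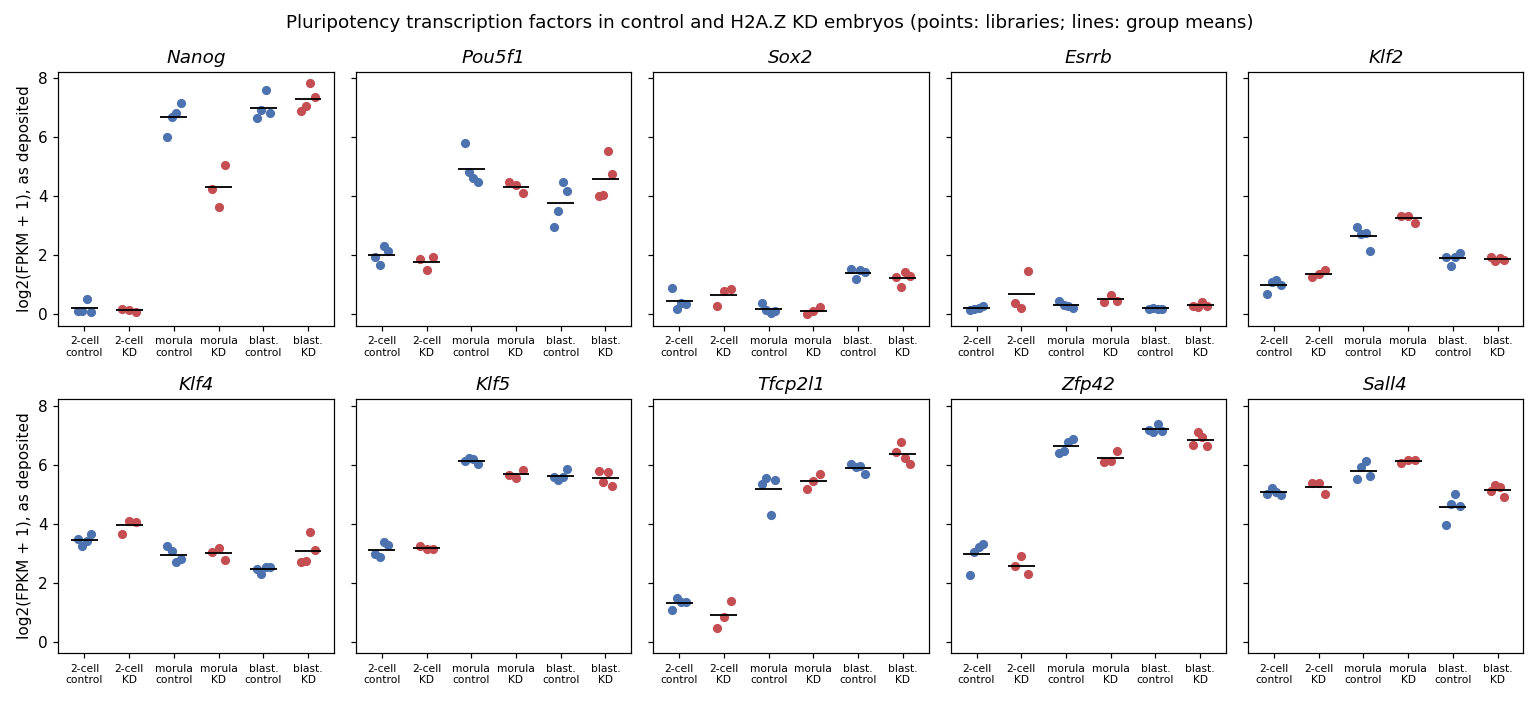
Level of each of the 10 transcription factors in the 22 libraries, as log2(FPKM + 1), with points for libraries and lines for group means. Nanog was 62.9 to 143 FPKM in control morulae and 11.6 to 32.5 in KD morulae.

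How the members change in normal development was examined in the 12 control libraries, which also serve as the controls of the KD comparisons. A gene was tested if its FPKM was at least 1 in at least 3 libraries, and called if its limma p-value adjusted over all genes tested was under 0.05. Between 2-cell embryos and morulae, 9 of the 10 members passed this filter, all but Esrrb, but Nanog and Sox2 passed it only through stages later than the 2-cell embryo. Of the other 7, 6 were called higher in morulae and 1 lower, beside 40.6% and 40.4% of the 14686 genes tested. Tfcp2l1 rose by 3.70, Zfp42 by 3.51, Klf5 by 2.86 and Pou5f1 by 2.77 on the log2 scale. The increases of Klf2 and Sall4 were smaller, 1.55 and 0.57, and Klf4 was the member that fell, with a log2 fold change of -0.64. Nanog went from at most 0.422 FPKM in 2-cell controls to at least 62.9 in control morulae, a log2 fold change of 6.37, or 8.65 with a pseudocount of 0.1. A gene admitted by its high stage had to differ, so this rise is a description and no test of it is given. Sox2 was below 1 FPKM in all 8 libraries of this comparison and entered the fit through blastocysts alone, so no test of its change is given here either.

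From control morulae to control blastocysts, 2 members other than Sox2 were called higher, Tfcp2l1 and Zfp42, and 5 were called lower, beside 24.3% and 21.7% of the genes tested. Sox2, which passed the filter only through its level in blastocysts, was at 0.0352 to 0.295 FPKM in control morulae and 1.27 to 1.9 in control blastocysts. This is a log2 fold change of 1.19, or 3.04 with a pseudocount of 0.1, given without a test. Sall4, Pou5f1, Klf2, Klf5 and Klf4 were lower in blastocysts, with log2 fold changes from -1.24 for Sall4 to -0.49 for Klf4. The call of Klf4 was lost without blastocyst control replicate 4 (log2 fold change -0.42, limma adjusted p 0.0536). Tfcp2l1 had a log2 fold change of 0.73 and an adjusted p of 0.0217, which was 0.0613 without morula control replicate 7 (0.45), 0.063 without blastocyst control replicate 1 and 0.0697 without the filter on low FPKM. Zfp42 had a log2 fold change of 0.56 and an adjusted p of 0.0412, and its call was lost in 6 of the 12 fits that left out 1 library. These left out morula control replicate 1 (adjusted p 0.129) or 2 (0.105), or blastocyst control replicate 1 (0.0941), 4 (0.0519), 5 (0.0821) or 6 (0.0593). It was also lost with a pseudocount of 0.1 (0.0528) and without the filter (0.104). Nanog had a log2 fold change of 0.32 and an adjusted p of 0.345. The change was 0.038 without morula control replicate 1, 0.16 without blastocyst control replicate 5 and 0.51 without morula control replicate 8.

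The KD was compared with the controls of the same stage in separate fits. At the 2-cell stage 7 members were tested, and 0 were called in either direction, as were 0% of the 12160 genes tested with limma. The targeted gene H2afz, with a log2 fold change of -2.53, was not called either. The lack of a call in this fit therefore does not show that a member was unchanged. At an unadjusted p under 0.05 there were 701 genes, among them Klf4 and Klf2. Without control replicate 2 there was 1 called gene at this stage, and without KD replicate 1 there were 3.

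In morulae 8 members were tested, all but Sox2 and Esrrb. Klf2 was called higher, 1 of 8, where 4.23% of the 10989 genes tested were called higher, and Nanog was called lower, 1 of 8, where 9.04% were. The share of higher genes among those called in morulae was 31.9%, and it was 15.3% with FPKM as deposited and 42.4% with scaling to the upper quartile. The 1458 genes called in morulae became 910 without control replicate 7, 855 without control replicate 8, 579 without KD replicate 1, 551 without KD replicate 2 and 412 without the filter. In blastocysts 9 members were tested, all but Esrrb. Klf4 and Sall4 were called higher, 2 of 9, where 16.7% of the 11828 genes tested were, and 0 were called lower, where 19.8% were. Whether these counts differ from the shares over all genes was not tested. The members' median log2 fold change was 0.12 at the 2-cell stage, -0.065 in morulae and 0.29 in blastocysts, beside 0.00352, 0.015 and 0.0047 over all genes tested. Fold changes are of log2(scaled FPKM + 1), which understates the changes of genes with a low level.

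**Figure D2:**
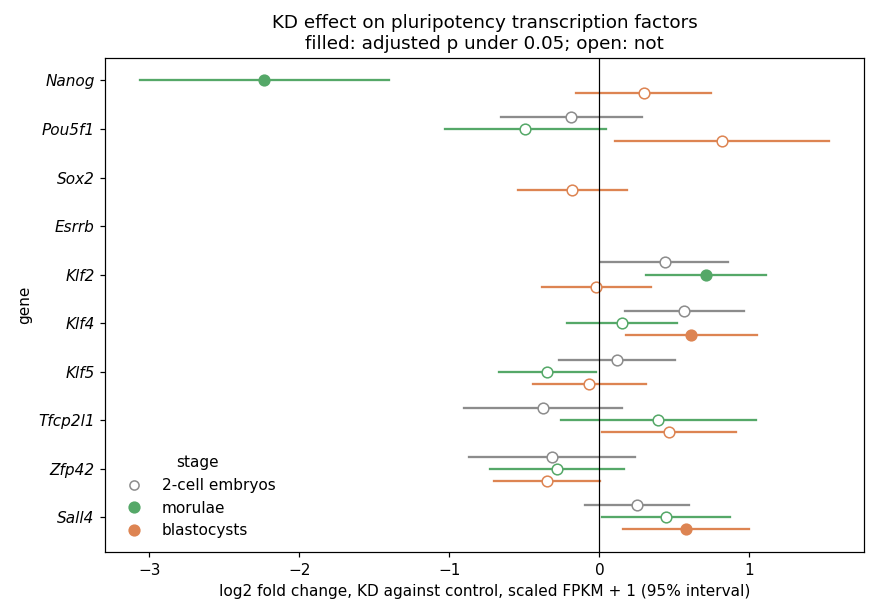
Log2 fold change of KD against control for each member and stage, with its 95% interval from limma, filled where the adjusted p was under 0.05. Nanog in morulae lies at -2.23 with an interval from -3.06 to -1.40.

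Nanog (ENSMUSG00000012396.12, chr6:122707489-122714633, plus strand) encodes a homeodomain factor of the epiblast. Control morulae had 62.9, 103, 113 and 143 FPKM, a mean of 106 ± 33.2 (SD, n = 4), and KD morulae had 17.9, 11.6 and 32.5, a mean of 20.7 ± 10.8 (SD, n = 3). All 3 KD libraries lay below all 4 controls, and the highest KD library was well below the lowest control. Nanog fell by 2.23 on the log2 scale (SE 0.375, 95% interval -3.06 to -1.40, limma adjusted p 0.00647), the 10th most negative fold change of the 10989 genes tested. It was the 1 member whose change after KD was both called and larger than 1 on the log2 scale, the definition of DEGs in the study. With any 1 library left out the fold change was between -2.64 and -1.90 and the gene stayed called. Within replicate numbers 1 and 2 the difference in mean log2(FPKM + 1) was -2.40, and within the higher numbers, with 1 KD library, it was -1.94. Without the filter on low FPKM, which adds genes to the adjustment, the adjusted p was 0.0719. In bulk libraries fewer cells with Nanog and less Nanog RNA per cell cannot be told apart.

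In blastocysts the Nanog values were 100.5, 121, 195 and 112 FPKM in controls and 118, 134, 226 and 166 after KD. The groups overlapped, and the highest library of each was replicate 5. The log2 fold change was 0.29 with a limma adjusted p of 0.288, and it was 0.46 without control replicate 5 and 0.17 without KD replicate 5. The KD effect on Nanog differed between the stages, by 2.49 on the log2 scale for blastocysts minus morulae (SE 0.451, adjusted p 0.00202). This difference was tested in a fit over both stages, in which 1 of the 9 members tested was called higher, where 5.43% of 12727 genes were, and 1 was called lower, where 6.32% were. The 1495 genes called in that fit became 962 without morula KD replicate 1 and 988 without the filter. In the 2-cell embryos all 7 libraries were between 0.0529 and 0.422 FPKM, and Nanog did not pass the filter. By group means Nanog ran from KD blastocysts (161) over control blastocysts (132), control morulae and KD morulae to 2-cell controls (0.163) and 2-cell KD embryos (0.0929). KD morulae overlapped neither neighbour in this order, and the other neighbouring groups overlapped.

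Pou5f1 (ENSMUSG00000024406.16, chr17:35506018-35510772, plus strand) encodes OCT4, a POU-domain factor. Its values were 55.3, 27.3, 23.7 and 21.5 FPKM in control morulae and 21.3, 19.8 and 16.3 in KD morulae. The KD libraries lay just below the controls without overlap, by a narrow margin, and control replicate 1 was the highest. The log2 fold change was -0.49 (SE 0.241) with a limma adjusted p of 0.195, and without control replicate 1 the change was -0.26. In blastocysts Pou5f1 had 6.81, 10.4, 21.6 and 17.1 FPKM in controls, a mean of 14 ± 6.63, and 15.1, 15.5, 45.8 and 26.3 after KD, a mean of 25.7 ± 14.3 (SD, n = 4). These groups overlapped, and KD replicate 5 was the highest. The log2 fold change was 0.82 (SE 0.329, adjusted p 0.0712). With 1 library left out it ranged from 0.55 to 1.02, and the limma adjusted p from 0.0329 to 0.196. The gene was called when control replicate 5 (1.02, adjusted p 0.0329) or KD replicate 4 (0.97, adjusted p 0.0476) was left out, and when the range of replicate numbers was a term of the fit (adjusted p 0.0347). The difference of the KD effect between the stages was 1.27 with an adjusted p of 0.0825, and 1.48 with 0.0395 without blastocyst control replicate 5.

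At the 2-cell stage Pou5f1 was at 2.2 to 3.94 FPKM in controls and 1.86 to 2.85 after KD, and the groups overlapped. Its group means ran from control morulae (31.9) over KD blastocysts, KD morulae (19.1) and control blastocysts to 2-cell controls (3.11) and 2-cell KD embryos (2.47). Only control blastocysts and 2-cell controls were neighbours without overlap. Pou5f1 overlaps the antisense gene Gm19553, which holds 11.4% of the stretches of 75 bases of its longest transcript, and Smart-seq2 does not mark the strand, so reads of both genes cannot be told apart there. The highest level of Gm19553 in any library was 0.453 FPKM.

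Sox2 (ENSMUSG00000074637.7, chr3:34650405-34652461, plus strand), which encodes the partner of OCT4, was low at all stages. Control blastocysts had 1.9, 1.27, 1.82 and 1.69 FPKM and KD blastocysts had 1.4, 0.884, 1.73 and 1.45. The groups overlapped, with a log2 fold change of -0.18 (-0.27 to -0.090 without 1 library) and a limma adjusted p of 0.425. In morulae Sox2 was 0.0352 to 0.295 FPKM in controls and 0 to 0.173 after KD, and in 2-cell embryos 0.122 to 0.836 and 0.216 to 0.814, and it was not tested in either fit. Group means ran from control blastocysts (1.67) over KD blastocysts (1.36), 2-cell KD embryos (0.585), 2-cell controls (0.381) and control morulae (0.125) to KD morulae (0.0845). The blastocysts were above all 2-cell embryos, and all other neighbours overlapped. Sox2 lies inside the noncoding gene Sox2ot on the same strand.

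Esrrb (ENSMUSG00000021255.17, chr12:86361117-86521628, plus strand), a nuclear receptor that binds DNA as a monomer, was the 1 member that passed the filter in no fit. Its libraries were between 0.108 and 1.74 FPKM, and the highest was 2-cell KD replicate 4. The 2-cell KD values were 0.314, 0.17 and 1.74, beside 0.108 to 0.207 in the controls. Group means were 0.741 FPKM in 2-cell KD embryos, 0.421 in KD morulae, 0.249 in control morulae, 0.236 in KD blastocysts, 0.156 in 2-cell controls and 0.145 in control blastocysts, and all neighbours in this order overlapped. In blastocysts the KD libraries, 0.177 to 0.338 FPKM, lay above the controls, 0.136 to 0.164, at levels too low to be tested.

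Klf2, Klf4 and Klf5 encode Krüppel-like zinc finger factors that bind related GC-rich boxes. Klf2 (ENSMUSG00000055148.7, chr8:72319033-72321656, plus strand) had 6.86, 5.64, 5.69 and 3.46 FPKM in control morulae, a mean of 5.41 ± 1.42 (SD, n = 4), and 8.99, 9.07 and 7.61 in KD morulae, a mean of 8.56 ± 0.822 (SD, n = 3). All KD libraries were above all controls, and control replicate 8 was the lowest. Klf2 rose by 0.71 on the log2 scale (SE 0.179, limma adjusted p 0.0278). The call was lost without control replicate 2 (adjusted p 0.0504), control replicate 8 (0.0592), KD replicate 1 (0.0877) or KD replicate 2 (0.111), with FPKM as deposited (0.0733) and without the filter (0.0909). The difference was 0.47 in mean log2(FPKM + 1) within numbers 1 and 2 and 0.66 within the higher numbers. In 2-cell embryos Klf2 had 0.597, 1.13, 1.23 and 1.01 FPKM in controls and 1.42, 1.59 and 1.82 after KD. These groups did not overlap either, and the log2 fold change was 0.43 with an unadjusted p of 0.044 and a limma adjusted p of 0.828.

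In blastocysts Klf2 was at 2.88, 2.12, 2.87 and 3.21 FPKM in controls and 2.83, 2.54, 2.78 and 2.59 after KD, with overlap and a log2 fold change of -0.020 (limma adjusted p 0.94). The KD effect on Klf2 was lower in blastocysts than in morulae by -0.76 (SE 0.233, adjusted p 0.0417). This call was lost in 10 of the 15 fits that left out 1 library. Among the morulae these were control replicate 2 (adjusted p 0.0541) or 8 (0.0729) and KD replicate 1 (0.0852), 2 (0.1001) or 6 (0.0576). Among the blastocysts they were control replicate 1 (0.0781) or 6 (0.0769) and KD replicate 4 (0.0523), 5 (0.0637) or 6 (0.0712). It was also lost with FPKM as deposited (0.115), upper-quartile scaling (0.056), a pseudocount of 0.1 (0.0626) and no filter (0.063). Over all 6 groups the means of Klf2 ran from KD morulae over control morulae, control blastocysts (2.77), KD blastocysts (2.69) and 2-cell KD embryos (1.61) to 2-cell controls (0.992), and only the 2 blastocyst groups overlapped as neighbours.

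Klf4 (ENSMUSG00000003032.8, chr4:55527143-55532466, minus strand) had 4.5, 3.9, 4.74 and 4.82 FPKM in control blastocysts, a mean of 4.49 ± 0.416, and 5.51, 5.68, 12.1 and 7.6 in KD blastocysts, a mean of 7.71 ± 3.05 (SD, n = 4). All KD libraries were above all controls, and KD replicate 5 was the highest. Klf4 rose by 0.61 on the log2 scale (SE 0.201, limma adjusted p 0.031). Leaving out KD replicate 5 gave 0.45 with an adjusted p of 0.0706, and leaving out both libraries numbered 5, an alternative chosen after seeing the data, gave 0.44 with 0.117. The call was also lost without control replicate 4 (adjusted p 0.0958), 5 (0.0603) or 6 (0.0594), without KD replicate 6 (0.0685), with FPKM as deposited (0.0569) and without the filter (0.0784). Within the higher replicate numbers the difference was 0.73, and between the single libraries numbered 1 it was 0.24. The KD effects in blastocysts and morulae differed by 0.42 (limma adjusted p 0.313), which was not called, and by 0.26 without blastocyst KD replicate 5.

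In morulae Klf4 was at 5.49 to 8.34 FPKM in controls and 5.76 to 8.09 after KD, with a log2 fold change of 0.15 (0.053 to 0.24 without 1 library) and a limma adjusted p of 0.564. Its 2-cell values were 10.2, 8.34, 9.5 and 11.4 FPKM in controls and 11.6, 16.2 and 15.7 after KD. The lowest KD library there was just above the highest control, and the log2 fold change was 0.56 (SE 0.179, unadjusted p 0.00967, adjusted p 0.828). Klf4 thus had its highest means in 2-cell KD embryos (14.5) and 2-cell controls (9.87), followed by KD blastocysts, KD morulae (6.999), control morulae (6.79) and control blastocysts. The first pair and the last pair in this order did not overlap, and the neighbours between them did.

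Klf5 (ENSMUSG00000005148.8, chr14:99298691-99315036, plus strand) was the most abundant of the 3 in morulae and blastocysts. Control morulae had 69.1, 72.8, 71.8 and 63.8 FPKM and KD morulae had 49, 45.4 and 55.2. The KD libraries lay below all controls, with a log2 fold change of -0.35 (SE 0.146) and a limma adjusted p of 0.138, and with FPKM as deposited -0.47 and 0.0261. Blastocysts had 43.6 to 56.2 FPKM in controls and 37.2 to 54.4 after KD (log2 fold change -0.067, adjusted p 0.798), and 2-cell embryos had 6.23 to 9.38 and 7.86 to 8.39 (log2 fold change 0.12). The difference of the KD effect between the stages was 0.24 with an adjusted p of 0.521, and 0.13 without blastocyst KD replicate 1. By group means Klf5 ran from control morulae (69.4) over KD morulae (49.9), control blastocysts (48.5) and KD blastocysts (46.4) to 2-cell KD embryos (8.04) and 2-cell controls (7.78). The KD morulae and both blastocyst groups overlapped in turn, as did the 2-cell groups.

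Tfcp2l1 (ENSMUSG00000026380.10, chr1:118627945-118685168, plus strand), a CP2-family factor of naive pluripotency, had 63.2, 59.9, 61 and 50.7 FPKM in control blastocysts and 84.9, 107, 73.2 and 63.2 in KD blastocysts. The KD libraries were above the controls, although the lowest KD and the highest control were almost equal, and the log2 fold change was 0.46 with a limma adjusted p of 0.0982, or 0.30 without KD replicate 4. Morulae had 39.3, 45.6, 18.5 and 43 FPKM in controls and 34.7, 42.3 and 50.7 after KD (log2 fold change 0.39, adjusted p 0.389), a change that was 0.12 without control replicate 7 and 0.23 without KD replicate 6. These groups overlapped, and control replicate 7 was the lowest of the 7. In 2-cell embryos the range was 1.11 to 1.8 FPKM in controls and 0.39 to 1.59 after KD, with overlap. The means fell in the order KD blastocysts (82.2), control blastocysts (58.7), KD morulae (42.6), control morulae (36.6), 2-cell controls (1.5) and 2-cell KD embryos (0.927). Control blastocysts just overlapped KD morulae, and these overlapped control morulae.

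Zfp42 (ENSMUSG00000051176.6, chr8:43295063-43306980, minus strand), a zinc finger gene related to Yy1, had 142, 136, 166 and 139 FPKM in control blastocysts and 101, 135, 121 and 98.2 in KD blastocysts. All KD values were below all controls by a small margin, with a log2 fold change of -0.35 (SE 0.162, limma adjusted p 0.11). It was called without KD replicate 4 (-0.46, adjusted p 0.0441). In morulae the values were 82.7, 86.5, 109 and 116 FPKM in controls and 66.6, 68.5 and 86.1 after KD. Only KD replicate 6 reached the control range, and the log2 fold change was -0.28 (adjusted p 0.375), with -0.43 to -0.17 without 1 library. The 2-cell groups, 3.77 to 8.88 FPKM and 3.91 to 6.4, overlapped. Zfp42 means decreased from control blastocysts (146) over KD blastocysts (114), control morulae (98.4) and KD morulae (73.7) to 2-cell controls (7.02) and 2-cell KD embryos (5.05). KD blastocysts, control morulae and KD morulae overlapped in turn.

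Sall4 (ENSMUSG00000027547.17, chr2:168748332-168767943, minus strand) encodes a zinc finger factor found in oocytes as well as in pluripotent cells. Control blastocysts had 14.6, 24.6, 31.3 and 23.3 FPKM, a mean of 23.5 ± 6.88, and KD blastocysts had 33.6, 38.2, 36.8 and 28.7, a mean of 34.3 ± 4.22 (SD, n = 4). The groups overlapped, since control replicate 5 exceeded KD replicate 6, and control replicate 1 was the lowest. Sall4 rose by 0.58 on the log2 scale (SE 0.193, limma adjusted p 0.0335). Without control replicate 1 the fold change was 0.42 with an adjusted p of 0.0855. The call was also lost without control replicate 4 (adjusted p 0.0637) or 6 (0.0716), without KD replicate 1 (0.0689) or 4 (0.0833), with FPKM as deposited (0.0552) and without the filter (0.0927). Between the single libraries numbered 1 the difference was 1.15, and within the higher numbers it was 0.38.

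Morulae had 44.6, 60, 68.3 and 48.4 FPKM of Sall4 in controls and 64.6, 69.8 and 71.1 after KD, with overlap, a log2 fold change of 0.45 (0.29 without control replicate 1) and a limma adjusted p of 0.149. The KD effects on Sall4 in blastocysts and morulae differed by 0.092 (adjusted p 0.867). In 2-cell embryos the range was 30.2 to 35.6 FPKM in controls and 30.8 to 40.2 after KD. Sall4 means ran from KD morulae (68.5) over control morulae (55.3), 2-cell KD embryos (37.1), KD blastocysts (34.3) and 2-cell controls (32.3) to control blastocysts (23.5), and only control morulae and 2-cell KD embryos did not overlap as neighbours.

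For the 3 core members, genes with the most similar pattern over the 15 morula and blastocyst libraries were found by Pearson correlation of log2(FPKM + 1). They were sought among 6436 genes with a mean of at least 5 FPKM, which Sox2 itself did not reach. The correlation compares patterns and not levels. For Nanog they were Psmc3 (r = 0.947), Ap1m2 (0.938) and Snx4 (0.935). For Pou5f1 they were Myadm (0.958), Ckb (0.950) and Psmd3 (0.945), and for Sox2 they were Epcam (0.971), Reep5 (0.964) and Mymx (0.964). These values describe the libraries, which share stages, and carry no test.

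Other regulators of pluripotency, 26 genes, were summarised beside the members. For this list and those below, 4.23% of all genes tested in morulae were called higher and 9.04% lower. In blastocysts these shares were 16.7% and 19.8%. Whether the counts of any list differ from them was not tested. Some of the genes named from here on reached 1 FPKM only in the group where they were higher. These were Prdm14, Elf5, Gata2, Hand1 and Zfp352 in blastocysts and Ooep in morulae. They had to differ to be tested, so their calls are a description, also where they enter a count. In morulae 1 of the 16 tested was called higher, Rif1 (log2 fold change 0.51, limma adjusted p 0.0396), and 0 were called lower. The call of Rif1 was lost without control replicate 2, 7 or 8 or KD replicate 1 or 2 (adjusted p 0.0577 to 0.166). In blastocysts 4 of 18 were called higher and 2 lower, beside 16.7% and 19.8% of all genes tested. The higher genes were Dppa2 (0.80), Tbx3 (0.88), Trim28 (0.60) and Utf1 (0.66), and the lower genes were Prdm14 (-1.03), which encodes a repressor of differentiation in naive cells, and Mycn (-0.88). Tbx3 was not called without the filter on low FPKM (adjusted p 0.0665). Trim28 was not called without control replicate 1, 4, 5 or 6 or KD replicate 1, 5 or 6 (adjusted p 0.0503 to 0.0716), Utf1 without control replicate 1 or 6 or KD replicate 1, 5 or 6 (adjusted p 0.0749 to 0.131), and Mycn without control replicate 1, 4 or 5 or KD replicate 1, 4 or 6 (adjusted p 0.0513 to 0.102). Over all 16 alternatives the call was lost in 10 for Trim28, 8 for Utf1 and 8 for Mycn. Their limma adjusted p-values reached 0.0946, 0.145 and 0.157. The median log2 fold change of the list was 0.24 in morulae and 0.30 in blastocysts.

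Of 24 genes active in pluripotent cells, 18 were tested in morulae and 18 in blastocysts. Spic was called higher in morulae (1.31), and Tdh (-0.97) and Gdf3 (-0.69) were called lower. The call of Gdf3 in morulae was lost without control replicate 2, 7 or 8 or KD replicate 1 or 2 (adjusted p 0.0513 to 0.10001), and that of Spic in morulae without the filter on low FPKM (0.0832). In blastocysts 4 were called higher and 7 lower, beside 16.7% and 19.8% of all genes tested, with a median of -0.14. Bmp4, among the lower genes, passed the filter in only 5 of the fits that left out 1 library, so its call is a description. The smallest limma adjusted p-values there were those of Tdgf1 (-2.28, adjusted p 3.00e-05), which encodes the Nodal coreceptor Cripto, Spp1 (-2.37, 3.56e-05), Jam2 (-1.29, 0.000423) and Gdf3 (-1.51, 0.000627). Tdh was lower in KD morulae and higher in KD blastocysts (0.80), and this difference was called (1.73, adjusted p 0.000242).

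Among 33 paralogs of the members, 1 of 14 tested was called in morulae, Tfcp2, with a log2 fold change of 0.69 and a limma adjusted p of 0.0491, lost without control replicate 1, 2 or 8 or KD replicate 1, 2 or 6 (adjusted p 0.0607 to 0.164). In blastocysts 5 of 15 were called higher and 2 lower, beside 16.7% and 19.8% of all genes tested. Of the lower genes, 1 reached 1 FPKM only in control blastocysts and had to differ to be tested, so its call is a description. Tfcp2, among the higher genes, passed the filter in only 5 of the blastocyst fits that left out 1 library, so its call there is a description too. Sox15, a relative of Sox2, rose by 1.82 on the log2 scale in blastocysts, and Klf17 rose by 1.17. Klf11 (0.61) and Klf9 (-0.63) had the next smallest adjusted p-values. The call of Klf11 was lost without both libraries numbered 5, the alternative chosen after seeing the data (adjusted p 0.0557). Of the 12 markers of formative and primed pluripotency only 3 were tested at each stage, and Dnmt3b was the 1 called, in blastocysts (-0.53, adjusted p 0.0409), lost without control replicate 4, 5 or 6 or KD replicate 1, 4 or 6 (adjusted p 0.0767 to 0.116).

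Markers of other cell types were examined beside the members. TE markers summed to 215, 186, 185 and 204 FPKM in control morulae and 180.2, 161 and 213 in KD morulae, with Krt18 as the most abundant gene of each, and 2 of 12 tested were called, Hand1 (0.99) and Atp1b1 (0.61). The call of Hand1 in morulae was lost without control replicate 2, 7 or 8 or KD replicate 1 or 2 (adjusted p 0.0843 to 0.174), and that of Atp1b1 without control replicate 2, 7 or 8 or KD replicate 1 or 2 (adjusted p 0.0628 to 0.125). Without the filter on low FPKM both calls were lost too (0.201 for Hand1 and 0.0608 for Atp1b1). In blastocysts the sums were 3367, 3566, 2866 and 2504 in controls and 1112, 1418, 1236 and 1131 after KD. Every KD blastocyst was below every control, and the most abundant genes were Dppa1 or Krt18. Of 17 TE markers tested, 4 were called higher and 6 lower, beside 16.7% and 19.8% of all genes tested. The smallest limma adjusted p-values were those of Dppa1 (-2.56), Hand1 (1.35), Elf5 (-1.23) and Id2 (-1.33). Cdx2, which defines the TE, was not called (0.045), with 0.863, 1.56, 2.66 and 2.07 FPKM in control and 1.11, 1.16, 3.07 and 2.23 in KD blastocysts. The part of the TE in the values of Klf4 and Sall4 was not tested.

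Primitive endoderm markers summed to 127, 166, 200.4 and 152 FPKM in control and 170.4, 141, 194 and 171 in KD blastocysts, most of it from Dab2. Of 5 tested in blastocysts, Sparc (-1.999) and Lamb1 (-0.58) were called lower and 0 were called higher. The defining markers Gata4 and Sox17 had at most 0.105 and 1.07 FPKM in any blastocyst library. Gata6 had 8.25, 7.32, 7.46 and 19.4 FPKM in controls and 12, 9.45, 35.7 and 19 after KD and was not called, but it was called without control replicate 6 (1.02, adjusted p 0.0318). With 1 library left out its log2 fold change ranged from 0.43 to 1.02, and the limma adjusted p reached 0.334. Krt18, Cdx2, Dab2, Gata4, Sox17 and Gata6 were named after their values were seen. In morulae, where the list summed to 157, 135, 111 and 123 FPKM in controls and 116, 122 and 133 after KD, 0 of 2 tested were called.

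Of the 2-cell stage markers, 9 of 11 were in the table and 3 were tested in each of the later stages. Zfp352 (1.56) and Tcstv3 (2.01) were called higher in KD blastocysts, Tcstv3 not without the filter (adjusted p 0.115), and the list summed to 2.86, 3.49, 0.636 and 2.42 FPKM in controls and 8.7, 20.5, 4.7 and 29.7 after KD. Oocyte markers summed to 23, 18.7, 18.7 and 18.7 FPKM in control and 17.8, 22.1 and 17.3 in KD morulae. In blastocysts they summed to 47.6, 37.2, 38.9 and 39.9 FPKM in controls and 11.1, 10.2, 8.68 and 8.39 after KD, without overlap, and Ooep alone made up 86.1% to 92.3% of each control sum. Among them Ooep was lower in morulae (-1.23) and blastocysts (-3.52), and Padi6 was higher in blastocysts (0.66). The median log2 fold change of the 3 oocyte markers tested in blastocysts was 0.29. The call of Ooep in morulae was lost without the filter (adjusted p 0.0608). Cumulus cell markers summed to at most 0.168 FPKM in any morula or blastocyst library. In 2-cell libraries their sums were higher, from 1.10 FPKM in KD replicate 1 to 3.52 in KD replicate 2. The share of FPKM from mitochondrial transcripts was 13.3% to 14.6% in control and 15.7% to 18.3% in KD morulae, and 15.2% to 20% in control and 13% to 15.3% in KD blastocysts. These shares did not overlap in morulae, and their part in the levels of Nanog and Klf2 was not tested.

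Promoter windows of 250 bases before to 50 bases after the transcription start were available from RefSeq (GRCm38.p6) for 8 of the 10 members, all but Klf5 and Sall4. These 8 have 11 windows, with 2 each for Nanog, Pou5f1 and Esrrb, and all were searched on both strands for 4 short motifs. The octamer core TTTGCAT, known as a POU-factor motif, was in 4.63% of 32851 windows of all genes, in both of Nanog and in those of Sox2 and Zfp42. The SOX core CATTGT was in 12.6% of all windows, in both of Nanog, in that of Esrrb at the start of the gene, and in the window of Pou5f1 that lies inside the gene (chr17:35508557-35508856) but not in the other. The KLF box GGGTGTG was in 7.95%, in the same window of Esrrb and in that of Zfp42, and AAGGTCA, bound by ESRRB, was in 4.72% and in no member's window. No motif overlapped another in the 3 windows shown, which are those of the members that hold the octamer core. Capitals mark motifs on either strand, and the reverse complements are ATGCAAA for the octamer core, ACAATG for the SOX core and CACACCC for the KLF box. The windows lie at chr6:122707239-122707538 on the plus strand for Nanog, chr3:34649745-34650044 on the plus strand for Sox2 and chr8:43306960-43307259 on the minus strand for Zfp42. That of Sox2 follows its RefSeq start and lies wholly before the start of the gene given above.
Nanog: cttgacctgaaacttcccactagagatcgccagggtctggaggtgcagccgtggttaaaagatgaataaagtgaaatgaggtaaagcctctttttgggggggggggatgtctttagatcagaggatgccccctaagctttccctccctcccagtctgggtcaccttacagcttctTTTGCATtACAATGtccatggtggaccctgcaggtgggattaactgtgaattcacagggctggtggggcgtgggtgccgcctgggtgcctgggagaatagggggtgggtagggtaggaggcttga
Sox2: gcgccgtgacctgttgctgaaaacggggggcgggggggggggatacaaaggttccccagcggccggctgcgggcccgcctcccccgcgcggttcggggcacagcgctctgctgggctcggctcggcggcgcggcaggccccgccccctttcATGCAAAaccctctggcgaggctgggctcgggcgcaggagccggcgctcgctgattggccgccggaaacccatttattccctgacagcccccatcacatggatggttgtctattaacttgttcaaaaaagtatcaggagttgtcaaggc
Zfp42: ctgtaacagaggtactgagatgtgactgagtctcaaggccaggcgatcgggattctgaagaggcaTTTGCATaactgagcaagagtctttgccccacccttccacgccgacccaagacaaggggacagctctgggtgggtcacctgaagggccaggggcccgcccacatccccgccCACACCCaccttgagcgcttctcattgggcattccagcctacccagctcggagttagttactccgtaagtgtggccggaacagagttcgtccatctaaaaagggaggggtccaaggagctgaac
In the Nanog window the octamer core and the SOX core stand side by side with 1 base between them, an arrangement with up to 3 bases between them that 6 of the 32851 windows held, among them the 2 overlapping windows of Nanog. A match describes these letters only and was not tested as a binding site.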

How the data were processed

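Whole mouse embryos, 15 per library, were profiled by Smart-seq2 in 22 libraries, with groups and replicate numbers taken from the sample titles. FPKM were deposited by the authors, who had used STAR (mm10) for alignment and StringTie 2.1.4 for quantification. Their DEGs came from DESeq2 1.30.1 on featureCounts 1.6.2 counts, which were not used here because the table holds FPKM.

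From the deposited FPKM, a scaling factor was computed for each library of a fit from genes above 0 in all of its libraries, as the median ratio to their geometric mean, and log2 was taken after a pseudocount of 1. A gene entered a fit when 3 or more of its libraries reached an FPKM of 1. Tests were made with limma 3.58.1 (lmFit, eBayes with a trend, two-sided, no covariates) in R 4.3.3. Adjustment over all genes tested followed Benjamini and Hochberg, and genes with an adjusted p under 0.05 were called. KD was compared with control at each stage, the control stages were compared in a fit of the 12 control libraries, and the difference of the KD effect was the interaction in a fit of 15 libraries. Fold changes between the KD comparisons and development share control libraries. Levels are FPKM as deposited, with the SD over libraries. Levels of individual libraries and motifs were handled with Python 3.11.15, numpy 2.4.6 and pandas 2.3.3, and figures were drawn with matplotlib 3.10.9.

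Genes were named by a rule. It took all 10 members, H2afz and H2afv, up to 4 called genes of each other list with the smallest adjusted p, all genes of a list counted at 5 or fewer, and the 3 genes most like Nanog, Pou5f1 and Sox2. The result of 1 gene chosen by this rule is not reported here. The members and the lists were chosen with earlier results of these data known. Alternatives were other scaling, a pseudocount of 0.1, no filter, no trend in eBayes, the replicate number as a block, its range as a batch, a fit of the 2 stages compared alone, and each library left out in turn. The steps were tested on simulated data. Depth is unknown, and all value columns were assigned to a sample.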

Additional observations from a re-analysis of the deposited data

Results flagged for a closer look

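Dixon's test, at its 95% critical value, marked a library in 1 of the 48 groups of 4 libraries examined. Nanog in 2-cell control replicate 4 was 0.422 FPKM, and the other 3 controls were at most 0.0849. Chance gives about 1 in 20 such groups.

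The other values drew attention because the KD effect differed between blastocysts and morulae by limma's interaction test, as log2 differences for blastocysts minus morulae. Among the members these were Nanog, 2.49 (adjusted p 0.00202), and Klf2, -0.76 (0.0417). H2afv differed by 1.04 (0.0207), and its call was lost without morula KD replicate 6 (0.050001) and without the filter (0.0659). Other regulators of pluripotency were Prdm14, -0.93, and Mycn, -1.43. Genes active in pluripotent cells were Tdh, 1.73, Spp1, -2.77, Tdgf1, -2.18, L1td1, -1.56, Jam2, -1.07, and Dppa5a, -1.13. Of the TE markers 1 was called higher, Tfap2c, 1.10, and 6 lower, among them Id2, -2.21, Elf5, -1.31, and Gata2, -1.37. Over all genes tested in this fit, 5.43% were called higher and 6.32% lower. The primitive endoderm markers Sparc and Lamb1 differed by -2.06 and -0.75, and the oocyte markers Ooep and Padi6 by -2.28 and 0.62. Among the paralogs, Sox15 differed by 1.44 and Klf17 by 0.82. Of the 21 genes of the other lists called in this test, 12 kept their call in every alternative in which they passed the filter. The others were Prdm14, Mycn, Jam2, Dppa5a, Tfap2c, Dppa1, Lamb1, Padi6 and Klf17. Of the 15 fits that left out 1 library, 13 ended the call of Padi6, 12 that of Klf17 and 7 that of Dppa5a. Elf5 and Gata2 passed the filter in 12 of these fits. Prdm14, Elf5 and Gata2 reached 1 FPKM only in control blastocysts and so had to differ.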

How the results depend on the processing

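Over all alternatives, 2006 results for named genes kept direction and call, 217 lost a call, 14 gained one and 21 reversed. Of the genes of other lists called after KD, 1 of 8 kept its call in morulae and 28 of 41 in blastocysts, in every alternative in which the gene passed the filter. Beyond the fits without 1 library, calls in morulae were also lost with other scaling, a pseudocount of 0.1, no filter or the block. FPKM as deposited moved the median of all genes to 0.14 between 2-cell embryos and morulae, -0.085 in KD morulae and 0.11 for the difference of the KD effect. No counts were given, so depth cannot limit a value by a known amount. The cause was not tested for any change below.

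Counts of called genes over fits without 1 library were 0 to 3 at the 2-cell stage, 551 to 1744 in morulae and 962 to 1722 for the difference of the KD effect. Without the filter they were 412 in morulae and 988 for that difference. Counts of called members without 1 library were 1 to 2 in morulae, 0 to 3 in blastocysts and 1 to 3 for the difference. Without the filter they were 0 in morulae, 0 in blastocysts and 1 for the difference, and with FPKM as deposited 0 in blastocysts and 1 for the difference. Upper-quartile scaling and a pseudocount of 0.1 gave 1 member for the difference. Without both blastocyst libraries numbered 5, chosen after seeing the data, 1 member was called in blastocysts and 1 for the difference.

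Reversed values were all uncalled. In KD blastocysts Klf2 was 0.021 with upper-quartile scaling and -0.12 to 0.034 without 1 library, Klf5 -0.18 to 0.037 and Cdx2 -0.11 to 0.17. H2afz between 2-cell controls and morulae was -0.085 to 0.22. For the difference of the KD effect, Zfp42 was 0.048 as deposited and -0.23 to 0.039 without 1 library, Sall4 -0.056 to 0.24 and Tfcp2l1 -0.14 to 0.30.

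The libraries share only a replicate number. Deviations from the group means of same-numbered control and KD libraries correlated across genes at 0.209, 0.0146 and 0.214 in 2-cell embryos, 0.181 and 0.0944 in morulae and 0.0860, -0.111, 0.354 and 0.00149 in blastocysts, and at no stage did every library correlate best with its own number. Over all pairs, those within a range of numbers correlated at 0.0944 to 0.347 in morulae, -0.0211 to 0.214 in 2-cell embryos and -0.342 to 0.354 in blastocysts, and those across ranges at -0.278 to -0.0945, -0.237 to 0.0103 and -0.381 to 0.401. With the range as a batch, the genes called higher and lower were 777 and 1261 in morulae, 465 and 993 without it, and 2069 and 2451 in blastocysts. With the number as a block, the genes called higher and lower were 542 and 775 in morulae, 2110 and 2461 in blastocysts and 501 and 592 for the difference of the KD effect, and 0 in 2-cell embryos. The morula fit with this block has 1 residual degree of freedom. Under the block Klf2 had an adjusted p of 0.08997 in morulae and 0.153 for the difference, where that of H2afv was 0.0804. Pou5f1 was called in morulae (-0.73, adjusted p 0.0216), blastocysts (0.00337) and for the difference (1.497, 0.0158). Sall4 reversed to -0.0053 for the difference.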
